A study of Mus musculus with 24 samples.

Results

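The mouse precursors numbered mir-6896 to mir-7094 are a run of catalogue entries, most of which lie in introns, and they were taken here as every row of the small RNA counts whose name begins with mmu-mir- and a number in that range. The rule found 202 of the 1180 precursors counted. Small RNA and mRNA had been sequenced from the nucleus accumbens (NAc), a part of the ventral striatum, of C57BL/6J mice that were 9 weeks old by the labels. The 4 groups were unstressed males (NSM), stressed males (SM), unstressed females (NSF) and stressed females (SF), where stress was subchronic variable stress (SCVS), a daily alternation of foot shock, tail suspension and restraint. Each group had 3 libraries per assay, made by pooling the 10 punches of 5 mice, so that no value belongs to a single animal. The females of both groups were in estrus or proestrus.

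Most microRNAs (miRs) are cut from long transcripts by Drosha and its partner Dgcr8. A mirtron instead takes its hairpin ends from the splicing reaction: the intron is excised, its lariat is opened by the debranching enzyme Dbr1, and the folded product goes straight to export by Exportin-5 and cleavage by Dicer. In a tailed mirtron only one end of the hairpin is an intron end, and the rest of the intron must be trimmed away. The mature strand is loaded onto an Argonaute protein, where bases 2 to 8, the seed, pair with target mRNAs.

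The hairpin sequences show the mark of splicing, which the name rule did not use. How the catalogue chose these entries was not examined, so the shares below describe the run and are no test of it. RefSeq's GRCm38.p6 table held a hairpin for 180 of the 202 precursors, and each of these 180 matched the NCBIM37 genome exactly once. A total of 178 lay on the sense strand within an annotated gene, 177 of them protein coding. Of the 180, 163 (90.6%) ended on the last base of an annotated intron, against 17 of 749 (2.27%) of the other precursors with a single match. The last bases of the hairpin were AG, the usual end of an intron, in 167 (92.8%) of these precursors and in 65 (8.51%) of the others. Both ends were intron ends in 11 hairpins, only the 5′ end in 4 and neither in 13, so that the tailed form with its tail on the 5′ side was by far the commonest, in 152. For the 163 hairpins that ended on the last base of an intron, that intron had a median length of 481 bases, from 67 to 36267. Of these introns, 32 were at most 100 bases long and 56 were longer than 1000.

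**Figure D1:**
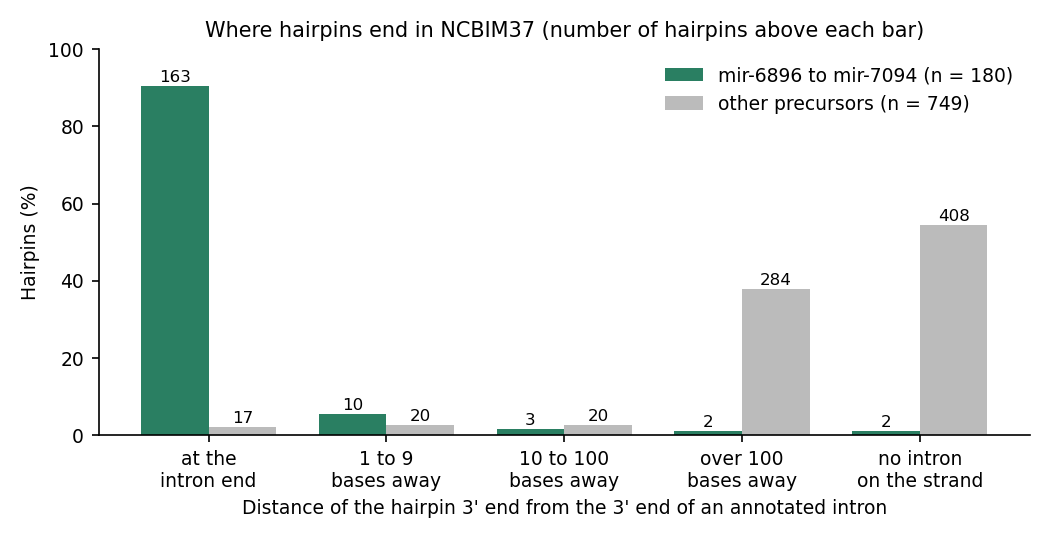
Share of hairpins (percent, vertical axis) by the distance of the hairpin's 3′ end from the 3′ end of an annotated intron on the same strand, for mir-6896 to mir-7094 (green, n = 180) and the other precursors (grey, n = 749), with the number of hairpins above each bar. The green bar at the intron end holds 163 hairpins, and most grey hairpins lie over 100 bases away or in no intron.

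The 2 most abundant precursors show both forms, with intron ends in capitals. mir-6944 fills an intron of Dbn1, which encodes the actin-binding protein drebrin (NCBIM37, chr13:55579042-55579137, minus strand), and is shown because both of its ends are splice sites. mir-6945 ends an intron of 239 bases in Pdlim7, which encodes a protein with PDZ and LIM domains (chr13:55608986-55609053, minus strand), and overlaps an exon of another transcript of that gene. mir-6959, in Sbf1 (chr15:89136089-89136163, minus strand), and mir-7030, in Rab35 (chr5:116095582-116095641, plus strand), are shown because both were lower in stressed females, as described further on.
mir-6944: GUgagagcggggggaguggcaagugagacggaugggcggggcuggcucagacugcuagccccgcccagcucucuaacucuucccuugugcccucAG
mir-6945: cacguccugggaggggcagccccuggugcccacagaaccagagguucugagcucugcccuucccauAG
mir-6959: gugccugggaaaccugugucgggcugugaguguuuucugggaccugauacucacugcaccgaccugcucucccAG
mir-7030: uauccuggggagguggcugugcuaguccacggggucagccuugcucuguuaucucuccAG

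The mature strands, which are parts of the same hairpins, carried the same mark. In the 177 annotated 3p strands, which come from the 3′ side of the hairpin and hold the polypyrimidine stretch that precedes an intron end, the median share of C and U was 72.2%, against 54.5% in 507 other 3p strands. AG was the last dinucleotide of 137 of them (77.4%), against 10.8% of the others. The 177 5p strands had a median of 43.5% G, against 27.3% in 503 others. In the strands below the seed is in capitals, and they belong to precursors that were called in a stress comparison or were the most abundant.
miR-6944-5p: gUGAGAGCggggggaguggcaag
miR-6944-3p: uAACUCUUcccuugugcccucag
miR-6900-5p: uGCCAGGAgaagccuagagccguc
miR-6900-3p: uGGUGAUGggcucucuuguag
miR-6948-5p: aGUUCAGAcaggacugugacac
miR-6959-3p: cUGCACCGaccugcucucccag
miR-7010-5p: cGGAAAGGauugggaaacuuga
miR-7042-3p: uGUCCCUUuguuuucucucag

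The group is not a seed family. Its 353 distinct mature sequences held 325 seeds, of which 301 occurred once and 24 more than once, and no seed occurred in more than 3 of them. One of the 4 seeds found in 3 strands was GGGGAGG, which miR-7030-5p shared with 2 strands of the group from other genes.
miR-7030-5p: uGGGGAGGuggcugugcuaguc
miR-7075-5p: cGGGGAGGaggacaugguuuu
miR-7076-5p: aGGGGAGGugguauggucuca
The precursors of these 3 strands differed in level: mir-7075 had 376 reads over the 12 libraries, mir-7030 had 52 and mir-7076 had none. Levels were not compared for the other shared seeds.

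Most of these precursors were read, but few of them often. At least 1 read was found in at least 1 library for 181 of 202, and 21 (10.4%) had none, against 263 of the 978 other precursors (26.9%). Summed over the 12 libraries, 47 had 1 to 12 reads, 75 had 13 to 60, 17 had 61 to 120, and 42 had more than 120. The median was 26.5 reads, or 2.21 reads per library, and 73 precursors had reads in all 12 libraries. All 202 together held 19452 reads, 0.0192% of the reads counted on precursors, and the 10 most abundant held 39.9% of those. The file gives a single number per precursor, so reads from its 5p strand, its 3p strand and other fragments cannot be told apart.

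How many were seen in a library followed the depth of that library. Between 5086554 and 13522287 reads were counted per library, and 119 precursors were read in the smallest and 152 in the largest. When every library was thinned to 5086554 reads, the expected number ran from 119.0 to 129.7 in NSM, from 123.6 to 127.7 in SM, from 122.8 to 127.2 in NSF and from 122.5 to 124.7 in SF. The 4 groups then overlapped. CPM is edgeR's unit of reads relative to library size, here after TMM scaling unless said otherwise. With a floor of 3 reads, a count of 0 allows up to 0.590 CPM in the smallest library and 0.222 CPM in the largest, both before TMM scaling. Intervals and floors in this text cover counting error only.

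**Figure D2:**
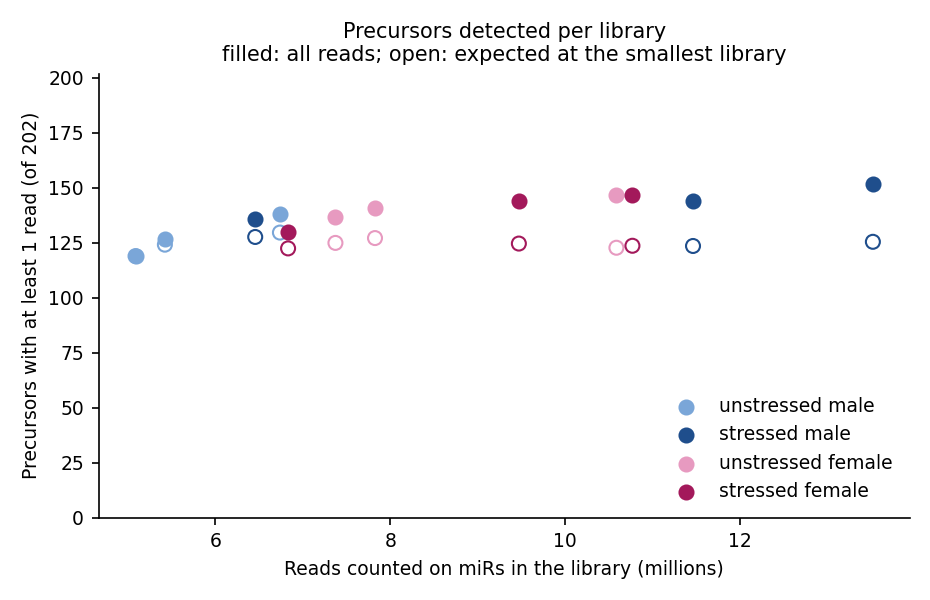
Number of the 202 precursors with at least 1 read (vertical axis) against the reads counted in the library (horizontal axis), 1 filled point per library colored by group. Open points give the number expected after thinning to the smallest library and lie between 119.0 and 129.7 in all groups, while the filled points climb from 119 to 152.

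The summed level of the group was 189 ± 8.02 CPM in NSM (SD, n = 3), 183 ± 3.06 in SM, 199 ± 4.73 in NSF and 194 ± 6.51 in SF. The 3 NSM libraries had 197, 188 and 181 CPM and the SM libraries 184, 186 and 180, so that the male groups overlapped. The NSF libraries had 203, 201 and 194 CPM and the SF libraries 188, 201 and 194, and these overlapped too. Between the sexes, all NSF and all SF libraries lay above all SM libraries, while NSM overlapped with each of the other groups. Before TMM scaling the SF and SM libraries overlapped, with 186 CPM in the first SF library and 187 in the first and second SM libraries. The NSF libraries, at 193 CPM or more, still lay above all SM libraries. Counting alone gave single libraries an exact 95% binomial interval of, for example, 169 to 192 CPM before TMM scaling in the second NSM library and 179 to 194 in the second SM library.

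The 10 precursors with the highest mean CPM were mir-6944, mir-6945, mir-7093, mir-6900, mir-6899, mir-6928, mir-6929, mir-6958, mir-7015 and mir-7080. Even the first of these, mir-6944, was only the 278th precursor of the whole table by mean CPM. It had 15.8, 11.9 and 13.5 CPM in NSM, 9.44, 11.5 and 15.9 in SM, 12.8, 12.8 and 11.7 in NSF and 13.5, 12.7 and 16.4 in SF. Both pairs of stressed and unstressed groups overlapped, and mir-6944 did not pass the test in males (log2 fold change -0.23, SE 0.18, adjusted p = 0.621, limma) or females (0.19, SE 0.17, adjusted p = 0.822, limma). mir-6945 had 14.1, 13.8 and 9.15 CPM in NSM, 10.6, 12.9 and 12.8 in SM, 12.1, 13.8 and 16.2 in NSF and 14.2, 14.4 and 13.0 in SF, and its groups overlapped in both sexes. mir-7093, which ends an intron of the X-linked gene Armcx3, had 9.24 ± 0.805 CPM in NSM (SD, n = 3), 8.25 ± 1.89 in SM, 8.34 ± 1.59 in NSF and 8.53 ± 1.26 in SF. By comparison mir-1224, a mirtron known for longer, had a mean of 86.6 CPM and mir-877, another of that kind, 18.5, while mir-702, a further one, had only 0.389 CPM.

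For so few reads, the spread between libraries of a group was close to counting error. The variance within groups divided by the variance that counting alone gives had a median of 0.872 in the 76 precursors with a mean of 1 to 5 reads per library and 0.793 in the 17 with 5 to 10 reads, where counting error alone has a median of 0.918. It was 1.3 in the 26 with 10 to 30 reads and 1.44 in the 16 with 30 to 120 reads. The other precursors of the same depth had medians of 0.932, 0.877, 1.16 and 1.19, while the 202 precursors with at least 1000 reads, none of them from this group, had a median of 57.0. The spread of these precursors between libraries was thus mostly that of counting, whereas abundant miRs varied far beyond it.

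**Figure D3:**
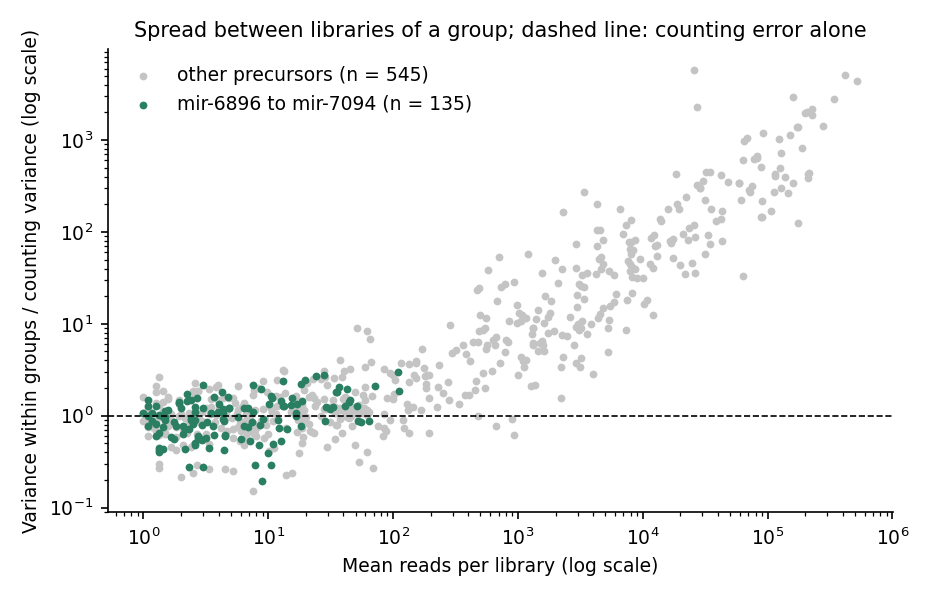
Variance between libraries of a group divided by the counting variance (vertical axis, log scale) against mean reads per library (horizontal axis, log scale) for every precursor with a mean of at least 1 read, with 135 precursors of the group in green and 545 others in grey. The green points scatter around the dashed line of counting error alone, and the grey points rise away from it above about 100 reads.

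That error limits the change that could be seen. In the male comparison 152 of the precursors had reads in both groups, and the 95% interval that counting alone gives around their ratio reached a median of 2.54-fold to either side. This reach was under 2-fold for 53 of them and under 1.3-fold, the fold at which a miR was called, for only 10. In the female comparison the median reach was 2.49-fold over 156 precursors, with 62 under 2-fold and 12 under 1.3-fold. For most of the group, a stress effect the size of that threshold was not detectable at this depth.

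In the test, 58 of the 202 precursors had more than 5 reads in all 3 libraries of at least one group and could be compared, and a miR counted as called when its fold change reached 1.3 and its unadjusted p (voom and limma) was below 0.05. A precursor that passed this filter only through the group where it was high had to differ to be tested. Because the tissue is bulk, fewer cells of a type and less RNA per cell cannot be told apart.

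SCVS was followed by few calls in males, and in no more of these precursors than of miRs in general. Stressed males differed from unstressed males in 3 of 58 precursors (5.17%), beside 5.2% of all 500 miRs tested. mir-7010 and mir-6948 were lower and mir-7042 was higher, and 2.4% and 2.8% of all tested miRs were called in these directions. The median log2 fold change of the 58 was -0.045, and that of all tested miRs -0.015. None of the 3 had an adjusted p under 0.05.

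mir-7010 spans the end of an intron of Gucy1a3, a subunit of the nitric oxide receptor guanylate cyclase, and reaches 1 base into the exon. It had 11, 9 and 8 reads in NSM and 12, 11 and 5 in SM, which were sequenced more deeply and gave 1.64, 1.72 and 1.52 CPM against 1.03, 0.809 and 0.771. It passed the filter on low counts only through NSM, the group where it was highest, so that lower values elsewhere were built into its being tested. NSM and SM did not overlap on the CPM scale, with a log2 fold change of -0.89 (SE 0.38, adjusted p = 0.332, limma). The ratio of its reads, each relative to the library sizes after TMM scaling, was 0.542, with a 95% counting interval from 0.309 to 0.949. In females it had 0.705, 0.966 and 0.258 CPM without stress and 0.532, 0.996 and 0.359 with it, and these overlapped.

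mir-7042, which ends an intron of Tatdn2, which encodes a protein with a TatD DNase domain, moved the other way. It had 4, 5 and 5 reads in NSM and 15, 17 and 11 in SM, or 0.595, 0.958 and 0.953 CPM against 1.29, 1.25 and 1.70. All stressed male libraries were above all unstressed ones (log2 fold change 0.66, SE 0.30, adjusted p = 0.379, limma), but the counting interval of the ratio of 1.66 ran from 0.893 to 3.29 and held 1. With the replicate number as a block the log2 fold change was 0.65 and not called. In females the values lay between 0.809 and 1.06 CPM in both groups.

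mir-6948, in an intron of Acin1, which encodes the splicing-associated protein acinus, had 39, 29 and 35 reads in NSM and 46, 77 and 21 in SM. That is 5.80, 5.56 and 6.67 CPM against 3.95, 5.67 and 3.24, and the second stressed library lay within the unstressed range. Its log2 fold change was -0.46 (SE 0.21, adjusted p = 0.379, limma). Of these 3 calls, DESeq2 made none (3.2% of all miRs called) and edgeR's quasi-likelihood test only that of mir-7010 (4.6% of all called). Without the first NSM library, all 3 calls were lost in the limma fit, and mir-7042 was left with a log2 fold change of 0.44. Each library was left out in turn, and the call of mir-6948 was lost in 10 of 12 such fits (log2 fold changes from -0.71 to -0.34), that of mir-7010 in 5 (each other male library but the first SM library, from -1.01 to -0.81) and that of mir-7042 in 4 (also the third SM, second NSF and first SF libraries, from 0.44 to 0.79).

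In females, 4 of the 58 precursors (6.90%) were called after SCVS, beside 4.8% of all tested miRs. All 4 were lower, where 3.4% of all tested miRs were called lower. They were mir-6979, mir-6959, mir-7030 and mir-6900, and none had an adjusted p under 0.05. The median log2 fold change of the 58 was -0.017, against 0.006 over all tested miRs, and both were near 0. The same 4 were called by edgeR, with 4.6% of all miRs called, and by DESeq2, with 2.4%.

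mir-6979 had 12, 23 and 21 reads in NSF and 7, 7 and 15 in SF, or 1.69, 2.22 and 2.71 CPM against 0.745, 0.996 and 1.35. Every stressed library was below every unstressed one, at about the level of the male libraries or under it, which ran from 1.18 to 1.54 CPM. The log2 fold change was -1.07 (SE 0.28, adjusted p = 0.344, limma), and the ratio of 0.474 had a counting interval from 0.292 to 0.754.

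mir-6959 lies at the end of an intron of Sbf1, which encodes a myotubularin-related protein, and its hairpin is printed above. It had 16, 14 and 12 reads in NSF and 6, 7 and 8 in SF, or 2.26, 1.35 and 1.55 CPM against 0.639, 0.996 and 0.719, again without overlap. The log2 fold change was -1.07 (SE 0.29, adjusted p = 0.344, limma) and the ratio 0.457, with a counting interval from 0.257 to 0.790. In males it was 0.920 ± 0.143 CPM (SD, n = 3) without stress and 1.26 ± 0.0268 with it.

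mir-7030, in the gene of the endosomal GTPase Rab35, had the largest log2 fold change among the 4 and the fewest reads. It had 6, 6 and 10 reads in NSF and 4, 0 and 4 in SF, or 0.846, 0.580 and 1.29 CPM against 0.426, 0 and 0.359. The log2 fold change of -1.90 (SE 0.60, adjusted p = 0.344, limma) depended on the second SF library, which had none of its reads. Without that library it was -1.03 and no longer called. mir-7030 passed the filter on low counts only through NSF, the group where it was highest, so that a lower SF value was built into its being tested.

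mir-6900, which ends an intron of Ndufa10, a subunit gene of respiratory complex I, was the only one of the 4 among the 10 most abundant. It had 66, 104 and 68 reads in NSF and 64, 60 and 68 in SF, or 9.31, 10.1 and 8.76 CPM against 6.81, 8.54 and 6.11. The NSF libraries stood above those of all other groups, since NSM had 7.73, 5.36 and 6.86 CPM and SM 6.95, 6.84 and 6.79. The log2 fold change was -0.43 (SE 0.15, adjusted p = 0.393, limma) and the ratio 0.738, with a counting interval from 0.607 to 0.896. The call was lost without the second NSF library (log2 fold change -0.37) or the third SF library (-0.32), and under scaling by library size without TMM (-0.37).

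**Figure D4:**
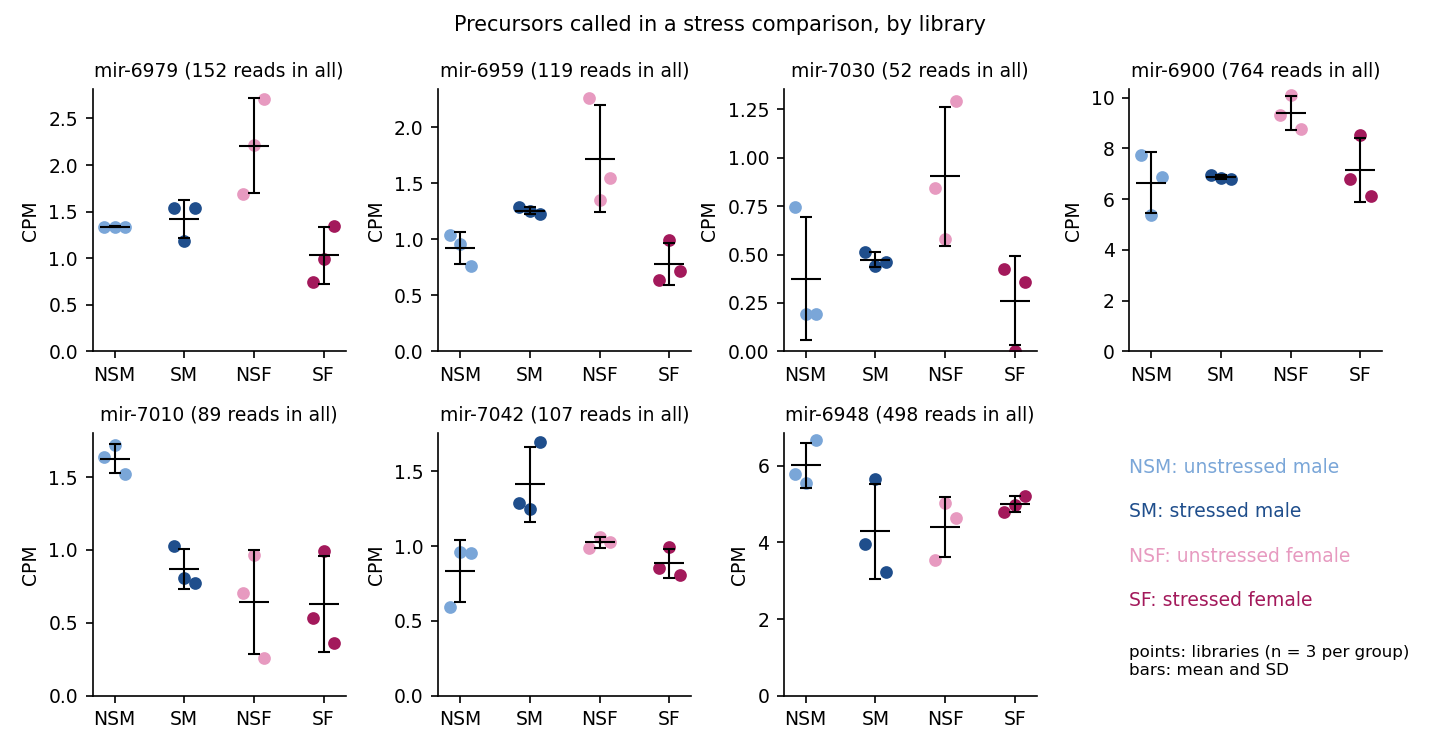
CPM (vertical axis, from 0) in each library of the 7 precursors called in a stress comparison, by group, with the mean and SD of the 3 libraries in black and the summed reads in each title. For mir-6979, mir-6959, mir-7030 and mir-6900 the NSF points lie above all SF points, and for mir-7010 the NSM points lie above all SM points.

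The effect of stress was called different between the sexes, by the interaction term of the same fit, in 4 of the 58 precursors (6.90%), beside 6.8% of all tested miRs. For mir-6959, mir-7030 and mir-6979 the female effect was lower than the male effect, and for mir-6948 it was higher, with 3.4% of all tested miRs called in each direction. mir-6959 had a log2 difference of -1.44 (SE 0.43, adjusted p = 0.420, limma) between a female change of -1.07 and a male change of 0.38. mir-6979 had one of -1.07 (SE 0.41, adjusted p = 0.486, limma), with a male change of 0.00. Among these 4, DESeq2 called only mir-6959 (4.2% of all miRs called), and edgeR mir-6959 and mir-6979 (6% of all called). Averaged over the sexes, only mir-6979 was called (1.72%, beside 2.6% of all tested miRs and 2.2% for lower values), with a log2 fold change of -0.53 (SE 0.21, adjusted p = 0.361, limma). That call was lost without the second SM library (-0.45), the third NSF library (-0.46) or the first SF library (-0.42).

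Without stress, females and males differed in 9 of the 58 precursors (15.5%), beside 7.6% of all tested miRs, and 7 of the 9 were higher in females, where 5.8% of all tested miRs were called higher and 1.8% lower. Of these, mir-6900 had 9.37 ± 0.648 CPM in NSF and 6.65 ± 1.20 in NSM (SD, n = 3), a log2 fold change of 0.49 (SE 0.17, adjusted p = 0.189, limma). mir-6929 had 7.48, 7.35 and 7.21 CPM in NSF and 5.05, 7.66 and 3.43 in NSM, so that one male library exceeded all female ones. mir-6951 had 3.57, 4.60 and 2.29 CPM in NSM and 4.66, 5.03 and 5.15 in NSF, and the groups did not overlap. Nor did they for mir-6979, with NSM libraries between 1.33 and 1.34 CPM, or for mir-6997, with 0.446, 1.34 and 1.72 CPM in NSM and 1.98, 1.74 and 1.93 in NSF. mir-7010, lower in NSF (log2 fold change -1.40, SE 0.42, adjusted p = 0.152, limma), is named here because of the filter on low counts. It passed that filter only through NSM, its highest group, so that a lower NSF value was built into its being tested. The smallest adjusted p of the group in this comparison was 0.133 (limma). DESeq2 called 3 of these 9 (4.6% of all miRs called). In place of 9 precursors limma called 4 without the first NSM library and 5 without the third NSM or the first NSF library.

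With stress, 5 of the 58 precursors (8.62%) differed between the sexes, beside 5.2% of all tested miRs, 3 higher and 2 lower in females, where 3.8% of all were called higher and 1.4% lower. DESeq2 called none of the 58, and 2% of all miRs. One of the 3 higher calls, mir-6976, is named here because of the filter on low counts. It passed that filter only through SF, the group where it was highest, so that a lower SM value was built into its being tested. mir-6959 was higher in females than in males without stress (log2 fold change 0.75, SE 0.31, adjusted p = 0.235, limma) and lower with stress (-0.69, SE 0.30, adjusted p = 0.573, limma). mir-6934, named here after its values were seen, was higher in females in both comparisons, with 0.595, 0.383 and 0.381 CPM in NSM, 1.83, 1.45 and 1.16 in NSF, 0.772, 0.515 and 1.39 in SM and 1.70, 0.996 and 1.35 in SF. These comparisons share libraries with the stress comparisons: the same 3 NSF libraries stand behind the higher unstressed and the lower stressed values of mir-6959, mir-6979 and mir-6900.

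MiRs of muscle also stood apart in these libraries. mir-206 was at 63.1 CPM in NSM, 138 in SM, 203 in NSF and 130 in SF, highest in the group where mir-6959, mir-6979 and mir-6900 were highest, and mir-1a-1 was at 306, 411, 411 and 367 CPM. mir-133a-1 was at 4.79, 6.76, 5.64 and 5.93 CPM, highest in SM. By these means mir-1a-1 shared part of the pattern of mir-206: it was lowest in NSM, higher in SM, and lower in SF than in NSF. Unlike mir-206, it was no higher in NSF than in SM. The mean of mir-133a-1 was also lowest in NSM and higher in SM, but it was not lower in SF than in NSF. Of the red cell miRs, mir-144 was at 155, 216, 175 and 168 CPM and mir-451a was listed at 0 in every library. The part of such tissue in the results was not tested. In the mRNA libraries, which held from 41076780 to 60867747 counted reads, the NAc markers Drd1, Drd2, Ppp1r1b, Adora2a, Rgs9, Penk and Tac1 were present in every library at 130 CPM or more, and Xist and Ddx3y matched the labelled sex in all of them.

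When every precursor with at least 1 read was tested, calls were more frequent in number but lay mostly in precursors with very few reads. In males 12 of 181 were called, 6.63% beside 6.81% of all miRs so tested, and in females 17 of 181, 9.39% beside 5.25%. Of the 12 in males, 10 had a mean under 5 reads per library and 5 had no read at all in one of the groups. Of the 17 in females, 14 had a mean under 5 reads and 4 had a group without reads. The counting interval of the ratio excluded 1 for only 4 of the 12 and 5 of the 17.

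The reads behind these calls are few enough to list in part. Among the male calls, mir-7026 had 0, 1 and 1 reads in NSM and 4, 9 and 5 in SM, and mir-6926 had 1, 1 and 3 against 12, 11 and 5. For these, the ratios of 4.88 and 3.03 had counting intervals that began at 1.17 and 1.16. At the other end, mir-6969, mir-7074 and mir-7053 were called in males on 1 read in one NSM library and none in SM. Among the female calls, mir-6931 had 0, 0 and 1 reads in NSF and 3, 2 and 3 in SF, and mir-6930 had 1, 1 and 2 against none. Such counts cannot be told from counting error, since the interval for mir-6930 ran from 0 to 1.39 and that for mir-6931 from 0.981 to 325.

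The mRNA of the same pools gave the level of the genes that hold these precursors, for the 182 with an annotated host. Host level is given as RPKM, which corrects for exon length and library size, averaged over the 12 mRNA libraries. Precursors without a read lay in genes with a median of 0.243 RPKM, and 15 of these 18 hosts were under 1. Those with 1 to 12 reads lay in genes with a median of 6.35, those with 13 to 60 and with 61 to 120 reads in genes with a median of 11.0, and those with more than 120 reads in genes with a median of 13.7. Across the 182 precursors, which share libraries and are not replicates, Spearman's rho between host level and reads was 0.45, as a description. With the length of the host intron rho was 0.16, and with the GC content of the hairpin, over 177 of them, -0.14.

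Host level did not fix the reads of the precursor. mir-7046 had none, although its host Rabac1, which encodes a Rab acceptor protein, was at 79.5 RPKM. At the other extreme mir-6929 had 611 reads, while its host Aarsd1, a gene of an alanyl-tRNA editing protein, was at 0.113 RPKM. The mRNA counts were made on another release of the annotation than the one used to place precursors, and a second entry over Aarsd1 there was not looked for.

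**Figure D5:**
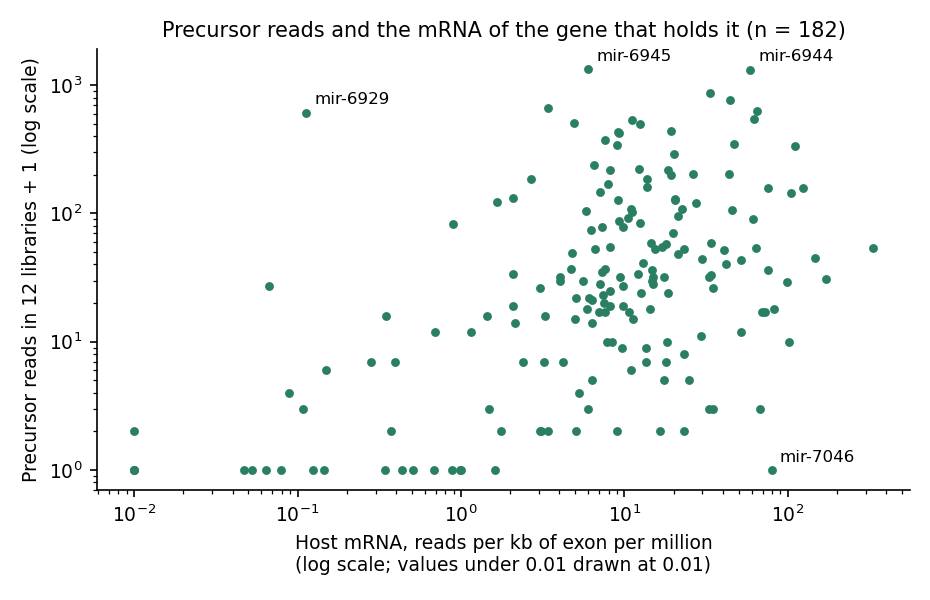
Reads of each precursor summed over 12 libraries plus 1 (vertical axis, log scale) against the mRNA of its host gene (RPKM, horizontal axis, log scale), 1 point for each of 182 precursors. Points on the floor are precursors without reads, 15 of 18 of which have a host under 1, and mir-6929 and mir-7046 are labelled as exceptions.

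Few hosts of the called and most abundant precursors were called after SCVS. In males 1 of 15 was called, beside 6.44% of the 18593 genes tested. It was Pdlim7, the host of mir-6945, which had 30.8 ± 10.1 CPM (here relative to the mRNA library) in NSM and 20.6 ± 5.08 in SM (SD, n = 3), with a log2 fold change of -0.55 (SE 0.20, adjusted p = 0.142, limma). The call was lost without the third NSM library (-0.31) or the second SM library (-0.37). mir-6945 itself had a log2 fold change of -0.03 (SE 0.17) in males. Acin1, the host of mir-6948, was below the fold threshold, with 117 ± 7.83 CPM in NSM and 96.6 ± 7.40 in SM (log2 fold change -0.27, SE 0.07, adjusted p = 0.0422, limma). The share of all genes with an unadjusted p under 0.05 is not given here, so such numbers are no result about hosts. In all, 4 of the 15 hosts had an unadjusted p under 0.05 in males, and all 4 were lower with stress. Beside Pdlim7 and Acin1 these were Dbn1, the host of mir-6944, with a log2 fold change of -0.19 (SE 0.07, adjusted p = 0.171, limma), and Atp6v0a1, the host of mir-6928, with -0.11 (SE 0.04, adjusted p = 0.171, limma). In females 0 of 15 hosts were called by limma, beside 1.73% of all genes, and 1, Atp6v0a1, had an unadjusted p under 0.05. Rab35 and Sbf1, whose precursors were lower in stressed females, had log2 fold changes of -0.01 (SE 0.04) and 0.01 (SE 0.06) in females.

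The genes that make and load these miRs were measured in the same mRNA libraries. All 16 of the processing genes listed were tested, and 0 were called by limma in males or in females. In males 4 of them had an unadjusted p under 0.05 with changes smaller than the fold threshold, and in females none did. The share of all genes under that p is not given here, so these numbers are no result about the list. After adjustment over all genes such a p could be large: Ppp1r1b had 0.0456 unadjusted and 0.223 adjusted in males (limma). Ago2, the Argonaute that cuts its targets, had 194 ± 3.52 CPM in NSM and 154 ± 0.814 in SM (SD, n = 3), a log2 fold change of -0.34 (SE 0.06, adjusted p = 0.00853, limma), which missed the fold threshold narrowly. Ago3 had a log2 fold change of -0.28 (SE 0.07, adjusted p = 0.0524, limma), Dicer1, which cuts the hairpin loop, one of -0.15 (SE 0.06, adjusted p = 0.155, limma) and Dgcr8, which mirtrons bypass, one of -0.13 (SE 0.05, adjusted p = 0.150, limma). The debranching enzyme Dbr1, which opens intron lariats, was at 12.7 ± 0.223 CPM in NSM, 13.1 ± 0.335 in SM, 13.1 ± 0.441 in NSF and 12.4 ± 0.513 in SF, and neither sex passed the test. In females the log2 fold changes of the 16 genes lay between -0.13 and 0.11, with a median of -0.02.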

How the data were processed

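Small RNA and mRNA had been sequenced in 12 libraries each from the same design, 3 for each of 4 groups of sex and stress, and libraries were assigned to groups by their labels. For small RNA the authors trimmed adaptors, aligned with Bowtie (build mm9) and used HTSeq for counting. The values deposited by the authors are raw read counts per precursor, although the study's methods name the mature miRBase annotation. For mRNA they aligned to NCBIM37 with TopHat2 and deposited raw HTSeq counts per gene. The strand setting is not given in the sources used here. No molecular identifiers are named for the small RNA reads.

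From these counts, precursors and genes were kept where 80% or more of the libraries of some group exceeded 5 reads, scaled by TMM (edgeR 4.0.16) and fitted with voom and limma 3.58.1 in R 4.3.3 with 1 mean per group, all 12 libraries sharing the spread. Calls needed a fold of 1.3 or more and an unadjusted p below 0.05. Benjamini-Hochberg adjustment ran over all features tested. The steps were tested on simulated data. As alternatives, DESeq2 1.42.0, the quasi-likelihood test of edgeR, other scalings and filters, calls by adjusted p, a replicate block and leaving out each library were tried. Ratios of summed reads carry exact 95% binomial intervals (scipy 1.17.1). RefSeq hairpins (GRCm38.p6) were matched exactly to NCBIM37 and placed in genes of the GENCODE vM1 annotation, and 5 precursors without a hairpin entry were placed by their mature strands.

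The members and lists were chosen with earlier results of these data known, and a few items are not reported here. Named are the precursors called in a stress comparison, the 10 of highest mean CPM, examples among those called when every precursor with a read was tested, and those called between the sexes, by count with up to 5 examples of the highest CPM. Labels number the libraries of each group. Same-numbered female small RNA libraries deviated together from their group means (correlations of 0.133, 0.191 and 0.312) and male ones did so for only 1 number (0.048, -0.019 and 0.261), while the labels give the numbers no meaning.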

Additional observations from a re-analysis of the deposited data

Results flagged for a closer look

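The effect of SCVS was called different between females and males in 4 precursors, by the interaction term of the limma fit over 3 libraries per group. The log2 difference (female effect minus male effect) was -1.44 for mir-6959, with a female change of -1.07 and a male change of 0.38. It was -2.26 for mir-7030 (-1.90 and 0.36), whose 52 reads in all include none in the second SF library, without which the difference was -1.40 and not called. It was also not called without the second NSM library (-2.01), and mir-7030 passed the filter on low counts only through NSF, its highest group, so that a lower SF value was built in. It was -1.07 for mir-6979 (-1.07 and 0.00), which without the first SF library had -0.85 and was not called. For mir-6948 it was 0.63 (0.17 and -0.46), a call that stood in 4 of 19 alternatives. None of the 4 had an adjusted p under 0.05 (smallest 0.420, limma), and 6.8% of all tested miRs were called in this comparison.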

How the results depend on the processing

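The called stress values of the 7 precursors, and the male values of Ago2, Ago3, Dicer1, Dgcr8, Pdlim7 and Acin1, kept their sign under every alternative run. Calls by adjusted p under 0.05, with the fold of 1.3 still required, numbered 0 in all 6 comparisons of the precursors. They also numbered 0 for hosts and processing genes in males, where Ago2 and Acin1 passed the adjusted p but missed the fold. Testing all 181 precursors with a read raised the calls to 12 (males), 17 (females), 14 (interaction) and 13 (mean stress effect). In the unstressed and stressed sex differences they rose to 19 and 9. The shares were 6.63%, 9.39%, 7.73%, 7.18%, 10.5% and 4.97% in that order, beside 6.85%, 4.2%, 6.43%, 3.64%, 5.73% and 5.45% of the other miRs. Both sex differences thus had a lower share than among the 58 precursors (15.5% and 8.62%). Requiring a mean of at least 10 reads left 42 precursors and 0 calls in males, 2 in females and 1 in the interaction. The unstressed and stressed sex differences had 4 and 0. These were 0%, 4.76%, 2.38%, 9.52% and 0%, beside 4.44%, 2.96%, 5.43%, 6.17% and 3.95% of the others. DESeq2 gave 0 in males, 1 in the interaction, 0 in the mean effect, 3 and 0 in the sex differences, against 3, 4, 1, 9 and 5 by limma, and edgeR gave 1 in males and 3 in the stressed sex difference. Leaving out 1 library moved the calls between 1 and 4 in males, 3 and 6 in females, 3 and 6 in the interaction, 1 and 4 in the mean effect (2 without the first NSM or the third SF, 3 without the third SM or second SF and 4 without the third NSF library), 4 and 10 in the unstressed and 4 and 6 in the stressed sex difference, and between 0 and 3 (males) and 0 and 1 (females) for hosts and processing genes. In males that was 0 without the third NSM or second SM library, 2 without the second NSM and 3 without the third SM library, and in females 1 without the second NSM or second NSF library. With a replicate block the mean effect gave 2 calls and hosts and processing genes 2 in males and 1 in females. That block changed no other count by over 1.5 times. In females it called the same 4 precursors, and in males it called mir-6948 and mir-7010 but not mir-7042. Scaling by library size gave 2 hosts and processing genes in males. The mean number of precursors read per library, 138, was 90.2 at a minimum of 3 reads, 41.4 at 10 reads and 125 after thinning. The summed levels of the groups without each library ran from 184 to 192 CPM in NSM, 182 to 185 in SM, 198 to 202 in NSF and 191 to 198 in SF. Where a call was lost the cause was not tested, beyond the removal of precursors by the stricter filter. Depth limits all of this: for most precursors counting error alone exceeds the 1.3-fold threshold.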
